A study of Arabidopsis thaliana with 24 samples.

Results

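The *rve8-1* mutant was compared with the Col wild type in early subjective day, at circadian time 4 h (CT4), in whole seedlings that had free-run in constant light for 76 or 100 h. Of the 24 AGRONOMICS1 arrays of the time course, 4 belong to this comparison, and they are named Col_76, Col_100, *rve8-1*_76 and *rve8-1*_100 after the genotype and the hours in constant light. Seedlings of both genotypes were raised for 7 days in cycles of 12 h light and 12 h dark and then kept in constant light. Col is the Columbia accession, *rve8-1* is a single T-DNA insertion line of *RVE8* in that background, and each array was hybridized with RNA from 1 pool of about 50 plants. The 76 h harvest fell on day 4 of free run and the 100 h harvest on day 5, and the later array served as the replicate of the earlier one. The replicates therefore differ by a day of free run, and p-values measure only the spread between such arrays. Values are log2 expression levels, so that a difference of 1 is a doubling. Of 30237 genes in the table, 19473 exceeded a level of 4.5 in at least 4 of the 12 arrays of either genotype, and these were tested.

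The plant circadian clock is built from transcription factors that repress or activate each other at set times of the day. The myb-like factors CCA1 and LHY accumulate around dawn and repress genes of the afternoon and evening, while RVE8, a myb-like factor of the same family, activates many of those genes through the evening element, a short promoter motif. Between dawn and midday the dawn genes decline and the afternoon genes climb, and CT4 lies within this transition. Lines without RVE8 are known to have a long free-running period. In whole seedlings, fewer cells that express a gene and less of its RNA per cell cannot be told apart.

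The 4 arrays were alike in their middle and differed at low levels. The 25th percentile over all genes was 4.02 in Col_76, 4.17 in Col_100, 3.92 in *rve8-1*_76 and 3.76 in *rve8-1*_100. Among the 24 arrays Col_100 had the highest such percentile and *rve8-1*_100 the lowest. Medians were 4.95 in 3 of the arrays and slightly higher in Col_100. Beside this, the median difference between the genotypes was -0.08 among the 1582 genes with a mean level under 4.5, 0.13 among the 5910 genes from 5.5 to 7 and -0.04 among the 1784 genes over 9. Over all genes tested it was 0.06. Of 8 root markers 7 passed the expression filter, and of 8 seed markers 3 did. None of these was called different between the genotypes (limma, adjusted p under 0.05), with median differences of 0.19 and -0.33. None of 4 flower markers passed the filter. Of 5 green leaf markers 1 was called, against 2.32% of all genes called higher. This was *CA1*, which encodes a chloroplast carbonic anhydrase and was higher in *rve8-1* by 0.47 (SE 0.12, adjusted p = 0.0425). The *CA1* call was lost without any 1 of the 4 arrays and under both other scalings.

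The targeted gene was examined first. *RVE8* (At3g09600) had levels of 6.28 and 5.94 in Col_76 and Col_100, and of 4.70 and 4.57 in *rve8-1*_76 and *rve8-1*_100. Both mutant arrays lay below both wild-type arrays and close to the expression threshold. The difference was -1.47 (SE 0.22, adjusted p = 0.00220 from limma's moderated test over all genes), and over the 5 other times of day it averaged -2.27. In Col, *RVE8* itself stood at 7.36 ± 0.01 (SD, n = 2) at CT0 and at 4.33 ± 0.06 (SD, n = 2) at CT8, so CT4 is a time at which the wild-type transcript is on its way down.

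Genes beside *RVE8* in the annotation moved the other way. At3g09590 was listed at 3.60 and 4.00 in Col and at 6.33 and 5.92 in *rve8-1*, a rise of 2.33 (SE 0.24, adjusted p = 0.000124). At3g09580 was measured at 6.84 and 7.03 in Col and at 8.03 and 8.12 in *rve8-1*, which is higher by 1.14 (SE 0.14, adjusted p = 0.000743). Both were also higher at the other times of day, by 1.12 and 0.89 on average. The 2 mutant arrays lay above the 2 wild-type arrays for each of these neighbors.

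Across the genome, 451 genes were higher in *rve8-1* at CT4, which is 2.32% of the genes tested, and 265 were lower, which is 1.36%. The 716 calls belong to 710 loci. Falls were larger than rises: genes that were lower had a median difference of -0.95 (25th to 75th percentile, -1.25 to -0.73), and genes that were higher one of 0.70 (0.57 to 0.93). A difference of at least 1 was found for 118 of the lower genes and for 88 of the higher ones. All called genes had arrays of the genotypes that did not overlap, but 30.1% of all genes tested had both *rve8-1* arrays above both Col arrays and 18.0% had both below, so that non-overlap alone distinguishes little here. The balance of the calls depends on scaling. Centring each array on its median lowered the CT4 difference of every gene by the same amount (change, -0.10). It gave 226 higher and 365 lower genes (38.2% higher, against 63.0% as deposited), and quantile normalization gave 311 and 315 (49.7% higher).

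The difference between the genotypes was wider on day 5 than on day 4. The median absolute difference over all genes tested was 0.16 at 76 h and 0.32 at 100 h, and differences of the 2 days correlated across genes with r = 0.373, where genes are not independent replicates and each day is 1 pair of arrays. Among the genes that were higher, the median difference went from 0.58 at 76 h to 0.85 at 100 h. Among the genes that were lower, it went from -0.86 to -1.02. The difference was larger in size on day 5 in 78.7% of the higher genes, 67.9% of the lower genes and 70.1% of all genes, so the called genes are close to the rest in this. Day 5 is also the day whose arrays had the highest and the lowest 25th percentile, and the part of this in the wider differences was not tested.

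**Figure D1:**
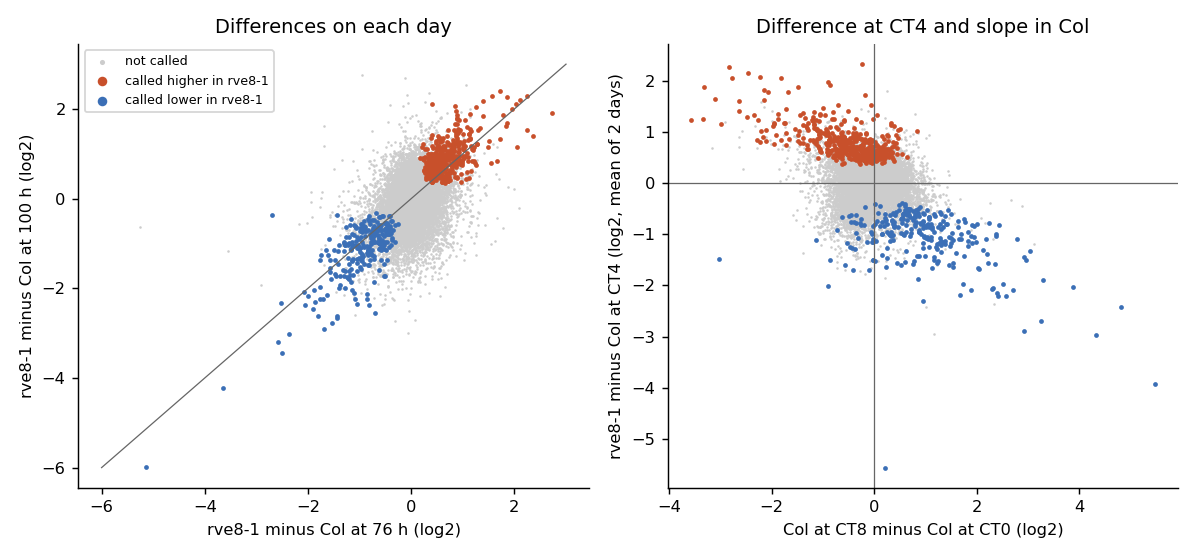
Left, the difference *rve8-1* minus Col (log2) at 76 h on the x axis and at 100 h on the y axis, 1 point per gene tested, with a line where both days are equal. Right, the CT4 difference (log2, mean of both days) against the change in Col from CT0 to CT8 (log2). Orange points are the 451 genes called higher, blue points the 265 called lower and grey points those not called, and on the right most orange points lie left of 0 and most blue points right of 0.

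The called genes were then described by what they do in wild type around this time, using Col arrays of other times of day. These arrays do not enter the CT4 means, but they share the estimate of the spread behind the calls. From CT0 to CT8 in Col, 359 of the 451 higher genes fell in level (79.6%, against 48.7% of all genes tested), and the median change was -0.40. Of the 265 lower genes, 230 climbed over the same hours in Col (86.8%, against 51.3% of all genes), with a median change of 0.88. Genes that were higher in the mutant were thus mostly genes on the decline in wild type, and genes that were lower were mostly on the climb. Over all genes the CT4 difference and this change correlated only weakly, at r = -0.170. Cosines with a period of 24 h fitted to the 10 Col arrays of the other times of day gave a median amplitude of 0.41 for the higher genes, 0.58 for the lower genes and 0.15 for all genes.

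Fitted peak times in Col separated both sets. Peaks within 2 h of CT20 were found for 52.1% of the higher genes and within 2 h of CT16 for a further 35.9%. Among the lower genes, 57.4% peaked around CT8, 18.9% around CT12 and 12.8% around CT4. All genes tested were spread more evenly, with 13.7% to 21.2% in each 4 h bin.

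**Figure D2:**
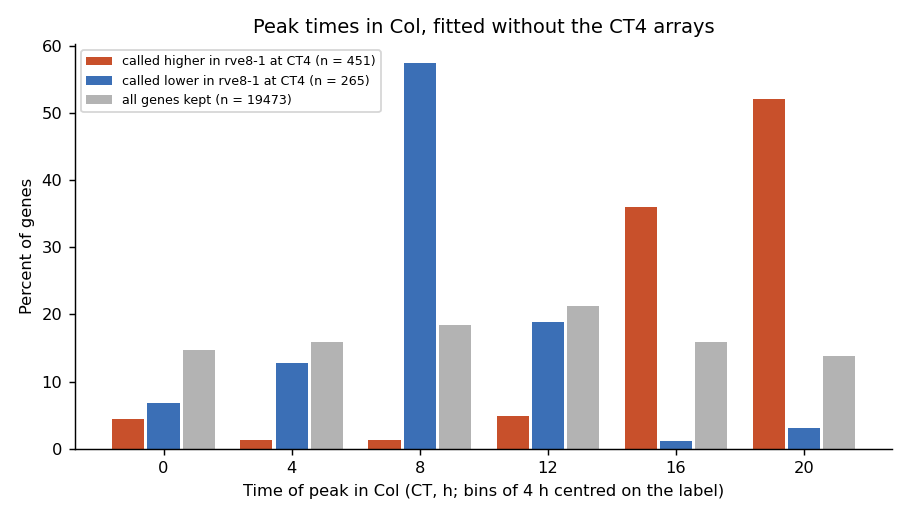
Percent of genes (y axis) by the time of their peak in Col (x axis, circadian time in h, bins of 4 h), from cosines fitted to the 10 Col arrays of the other times of day. Orange bars are the 451 genes higher in *rve8-1* at CT4, blue bars the 265 lower genes and grey bars all 19473 genes tested; orange bars are tallest at CT20 and CT16 and the blue bars at CT8.

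The CT4 difference was also tested against the mean difference at the 5 other times of day, in which differences of opposite sign cancel. It departed from that mean in 774 genes, 3.97% of those tested. Of the genes that were higher at CT4, 353 (78.3%) departed, and the median of their mean difference at the other times was -0.06. Of the genes that were lower, 183 (69.1%) departed, with a median of -0.02 for that mean. Both contrasts use the same CT4 arrays, so these shares describe the called genes and are not independent support for them.

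The *rve8-1* arrays of CT4 were also set against the Col arrays of CT0, harvested 4 h earlier in the cycle. Under this comparison 5 genes were called, 0.0257% of those tested (884 had an unadjusted p under 0.05, against 3646 at equal times). The median absolute difference over all genes was 0.13 against Col at CT0 and 0.19 against Col at CT4. The higher genes had a median difference of 0.21 from Col at CT0 and the lower genes one of -0.19. As both comparisons use the same *rve8-1* arrays, the values are given side by side only. The 5 genes were At1g53480 (-5.38), *RVE8* (-2.72), At3g09590 (2.45), At5g11330 (-1.40) and At3g09580 (1.13).

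Of the morning clock genes, *LHY*, *CCA1* and *RVE1* were higher in the mutant. *LHY* was at 6.86 and 6.28 in Col and at 8.11 and 8.32 in *rve8-1*, a difference of 1.65 (SE 0.36, adjusted p = 0.0206). *CCA1* was at 6.75 and 6.31 in Col and at 7.62 and 7.76 in *rve8-1*, a difference of 1.16 (SE 0.29, adjusted p = 0.0393). Neither gene had overlapping arrays, and the mutant levels were near those of Col at CT0, which were 8.07 ± 0.21 (SD, n = 2) for *LHY* and 7.69 ± 0.27 (SD, n = 2) for *CCA1*. *RVE1*, a myb-like factor that links the clock to auxin, went from 6.64 and 6.69 to 7.51 and 7.63, higher by 0.91 (SE 0.21, adjusted p = 0.0288). Calls for *CCA1* and *RVE1* were lost when any 1 of the 4 arrays was left out and with median centring, and that for *CCA1* also with quantile normalization. The *LHY* call was lost without Col_100 or either mutant array.

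The other morning genes were mixed. *PRR7*, a pseudoresponse regulator that represses *CCA1* and *LHY*, was lower, from 6.32 and 6.11 in Col to 5.18 and 5.32 in *rve8-1* (difference -0.97, SE 0.20, adjusted p = 0.0161), a call that was lost without any 1 array. *PRR9*, of the same family, had a difference of -0.71 that missed the threshold (adjusted p = 0.203). *RVE4*, a close relative of *RVE8*, differed by 0.27 (adjusted p = 0.331), and *LNK1* to *LNK4*, a family of coactivators that act with RVE8, had differences between 0.26 and 0.70, none of them called. Of the 13 morning genes tested, 3 were higher and 2 lower (all genes, 2.32% and 1.36%), with a median of 0.28. A further 3 loci were entered as *RVE3* (At1g01520), *RVE5* (At4g01280) and *RVE6* (At5g52660), names that the annotation does not give. The study counts *RVE3* to *RVE6* as the closest homologs of *RVE8*. With these 3 loci counted in, 5 of 16 were higher and 2 lower, with a median of 0.34. At1g01520, listed as *ASG4*, is described among the largest rises, and At4g01280 was higher by 0.48 (SE 0.12, adjusted p = 0.0350). At5g52660 was not called (0.13).

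Afternoon and evening clock genes were lower or not called, and none was higher. Of 15 tested, 8 were lower (all genes, 1.36%), and the median difference of the list was -0.47. Without Col_100 4 were lower, and with only the 4 arrays compared in the fit 1 was. *FKF1*, a blue light receptor and ubiquitin ligase subunit of the flowering pathway, was at 4.93 and 5.40 in Col and at 3.74 and 3.70 in *rve8-1*, lower by 1.45 on the log2 scale (difference -1.45, SE 0.17, adjusted p = 0.000491). *PRR5*, a known target of RVE8, went from 5.28 and 5.71 to 4.25 and 4.65 (difference -1.04, SE 0.18, adjusted p = 0.00495). *GI*, a partner of FKF1, went from 5.06 and 5.32 to 3.96 and 4.28 (difference -1.07, SE 0.18, adjusted p = 0.00385). In these 3 genes the mutant arrays were at or near the level of 4.5 or below it, as were the Col arrays at CT0. The *PRR5* call was lost without Col_100 or *rve8-1*_76, and that of *GI* without Col_100.

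*LUX*, the DNA-binding subunit of the evening complex, had levels of 5.81 and 6.25 in Col and 4.85 and 4.93 in *rve8-1*, lower by 1.14 (difference -1.14, SE 0.17, adjusted p = 0.00225). *PRR3*, which stabilizes TOC1, had 5.10 ± 0.14 (SD, n = 2) against 3.78 ± 0.39 (SD, n = 2), with no overlap of arrays (difference -1.32, SE 0.20, adjusted p = 0.00225). *GRP7*, an RNA-binding protein that represses its own expression, was at 12.16 and 12.47 against 11.20 and 11.50 (difference -0.97, SE 0.15, adjusted p = 0.00226). The remaining lower members were *CHE* (-0.84), which encodes a repressor of *CCA1*, and *GRP8* (-0.47), a relative of *GRP7*. Although *CHE* is in the evening list, its fitted peak in Col was at CT4.1, near that of *PRR7* (CT4.7) in the morning list. Of the 4 rows of *GRP8*, 2 were called, and the call of the row used was lost without any 1 array and with quantile normalization. The *CHE* call was lost without Col_100 or *rve8-1*_100.

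Other evening genes were not called at this time. *TOC1*, the evening repressor of *CCA1* and *LHY*, was at 5.10 and 5.48 in Col and at 4.55 and 5.25 in *rve8-1* (difference -0.39, SE 0.19, adjusted p = 0.293), with overlapping arrays. *ELF3* and *ELF4*, which form the evening complex with LUX, differed by -0.03 (SE 0.17) and -0.41 (SE 0.26). *ZTL*, whose protein rather than transcript cycles, differed by 0.02 (SE 0.15).

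**Figure D3:**
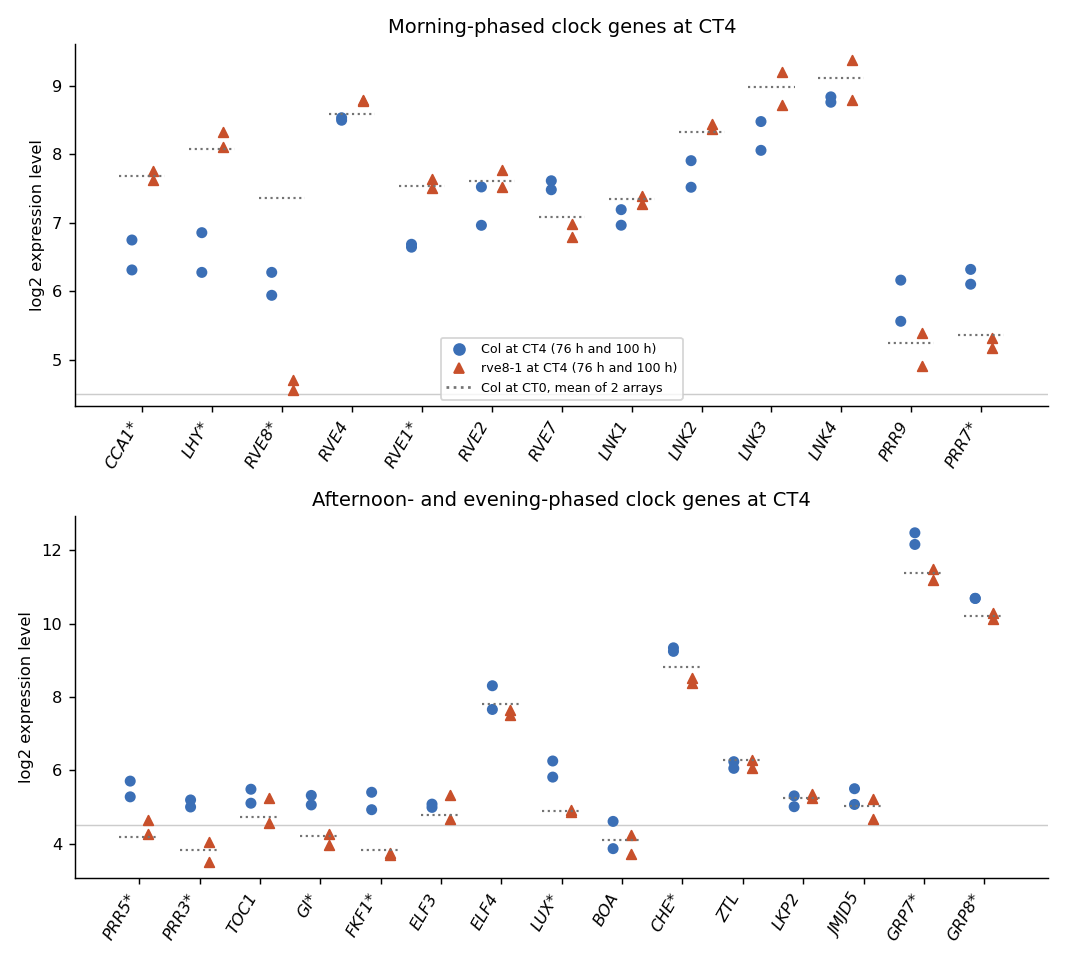
Log2 expression level (y axis) of the morning (upper) and the afternoon and evening clock genes (lower) in each CT4 array, with blue circles for Col and orange triangles for *rve8-1*, dotted lines at the mean of the 2 Col arrays of CT0 and an asterisk at called genes. The thin grey line is the level of 4.5 used in the filter; *CCA1*, *LHY* and *RVE1* lie above Col, and the 8 called evening genes lie below it.

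The largest falls ended under the level of 4.5 in several genes. At1g53480 (*MRD1* in RefSeq) was at 8.51 and 8.74 in Col and at 3.38 and 2.75 in *rve8-1*, a difference of -5.56 (SE 0.21, adjusted p = 4.65e-10). It was also lower at the other times of day, by -4.79 on average. At1g07050 was at 6.96 and 7.91 in Col and at 3.32 and 3.70 in *rve8-1* (difference -3.93, SE 0.52, adjusted p = 0.00112), whereas its average difference at the other times was 0.77. For At1g07050 the mutant was at the level of Col at CT0, 3.68 ± 0.79 (SD, n = 2), and for At1g53480 far below the 8.44 ± 0.07 (SD, n = 2) of Col at CT0.

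Apart from *COR15B*, described with the cold genes, the next falls were of dormancy-associated At2g33830 (-2.98), At1g56300 (-2.89), At5g62360 (-2.70), At5g23240 (-2.43), At5g49015 (-2.30), *MEE14* (-2.21) and *NUDT8* (-2.19). At1g56300 and At5g23240 belong to the DnaJ type of chaperones. *NUDT8* encodes a Nudix hydrolase. Fitted peaks in Col of these 7 genes lay between CT7.0 and CT10.8. Without Col_100 the calls for At2g33830, At5g23240 and At5g49015 were lost, as were those for At2g33830 and At5g49015 without *rve8-1*_100 and that for At2g33830 without *rve8-1*_76.

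The largest rise after At3g09590 was that of *ASG4* (At1g01520), the myb-like gene entered as *RVE3* in the morning list. It was at 4.32 ± 0.18 (SD, n = 2) in Col and at 6.59 ± 0.21 (SD, n = 2) in *rve8-1*, with no overlap of arrays (difference 2.27, SE 0.34, adjusted p = 0.00225). At5g42760 went from 5.48 and 5.63 to 7.51 and 7.74 (difference 2.07, SE 0.18, adjusted p = 6.42e-05). The others were At2g27420 (2.16), *UF3GT* (2.06), *NUDT24* (1.97), *CSLA01* (1.93), At5g18407 (1.89) and At4g27360 (1.88), with *DFR* described among the phenylpropanoid genes. Wild-type levels of *ASG4*, At2g27420, *CSLA01* and At5g18407 were under 4.5 at CT4, so these rises start from below the level of the filter. Without Col_100, or without *rve8-1*_76, the calls for *UF3GT*, *NUDT24*, *CSLA01* and At5g18407 were lost. Those for *UF3GT*, *NUDT24* and *CSLA01* were lost without *rve8-1*_100 too, and those for *NUDT24* and *CSLA01* without Col_76. Median centring ended the *CSLA01* call.

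**Figure D4:**
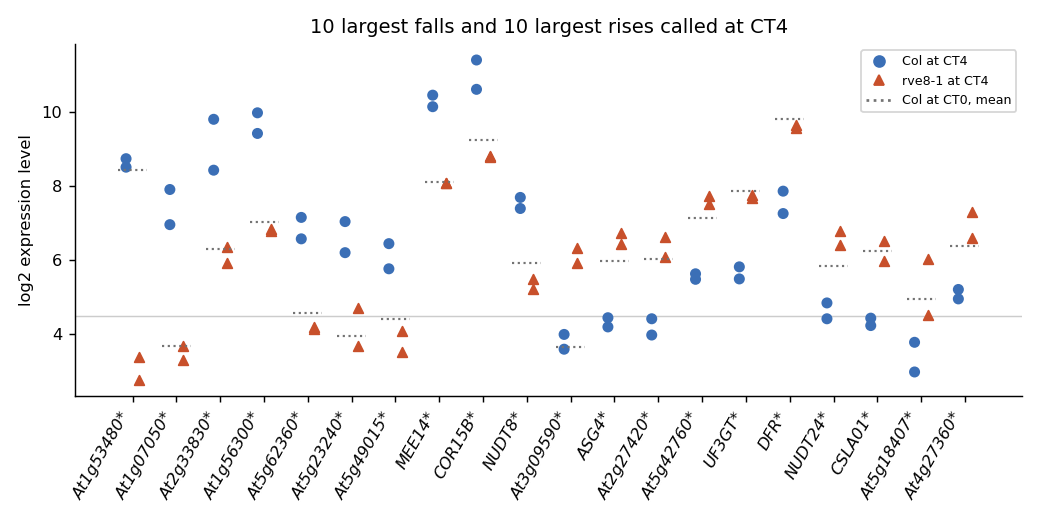
Log2 expression level (y axis) in each CT4 array of the 10 genes with the largest falls and the 10 with the largest rises among the called genes, with blue circles for Col, orange triangles for *rve8-1* and dotted lines at the mean of Col at CT0. The thin grey line marks 4.5; the mutant points lie near the dotted lines in most genes and far from them in At1g53480 and At3g09590.

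Phenylpropanoid genes were the list with the highest median. Of 20 tested, 7 were higher and none lower (all genes, 2.32% and 1.36%), with a median difference of 0.60. *DFR*, which commits flavonoids to anthocyanins, was at 7.86 and 7.26 in Col and at 9.58 and 9.65 in *rve8-1* (difference 2.05, SE 0.42, adjusted p = 0.0133). *HYH*, a bZIP factor of light signaling related to HY5, was at 6.94 and 7.02 against 8.43 and 8.18 (difference 1.33, SE 0.20, adjusted p = 0.00220). *FLS1*, the flavonol synthase, was higher by 0.83 and *MYB111*, an activator of flavonol genes, by 0.94, and the early flavonoid enzymes *TT4*, *TT5* and *F3H* made up the rest. *UF3GT*, which adds a sugar to anthocyanins, was outside the list. With only the 4 arrays compared in the fit, 4 were higher. With Col_100 or *rve8-1*_100 left out, 1 of the 20 was called, and without *rve8-1*_76 2 and without Col_76 4. The *HYH* call held each time, while those of *DFR*, *FLS1* and *MYB111* were each lost without Col_100 or *rve8-1*_100, those of *DFR* and *MYB111* also without *rve8-1*_76, and that of *MYB111* without Col_76.

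Starch genes were more often called lower than higher. Of 19 tested, 7 were lower and 1 higher (all genes, 1.36% and 2.32%), and the median was -0.41. With only the 4 arrays compared in the fit, 3 were lower. *AMY3*, a plastid alpha-amylase, was at 6.72 and 6.76 in Col and at 5.54 and 5.61 in *rve8-1* (difference -1.16, SE 0.12, adjusted p = 0.000124). *PHS2*, a cytosolic glucan phosphorylase, was at 7.47 and 7.39 against 5.83 and 6.25 (difference -1.39, SE 0.17, adjusted p = 0.000743). *DPE1*, a disproportionating enzyme of maltotriose metabolism, was lower as well (-1.09). So were *SEX1*, *ISA3* and *PHS1*, further enzymes of starch breakdown, and *QQS* (-1.50), a small protein that affects starch content. *QQS* was lower at the other times of day too, by -1.77 on average. *BAM9*, a catalytically inactive beta-amylase, was the member that was higher (1.09, SE 0.17, adjusted p = 0.00233). The *QQS* call was lost without Col_100 or either mutant array, and without Col_100 or *rve8-1*_76 3 of the list were called lower, against 4 without Col_76 and 5 without *rve8-1*_100.

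Cold-responsive genes had the lowest median of the pathway lists, at -0.77, with 6 of 11 lower and none higher (all genes, 1.36% and 2.32%). With only the 4 arrays compared in the fit, 2 were lower. *CBF3*, a transcription factor of cold acclimation, was at 6.03 and 7.10 in Col and at 4.49 and 4.33 in *rve8-1* (difference -2.16, SE 0.40, adjusted p = 0.00694). *COR27*, a cold- and clock-regulated gene, was at 6.05 and 7.43 against 4.62 and 4.81 (difference -2.03, SE 0.40, adjusted p = 0.0116). *COR15B*, which encodes a chloroplast protein that protects membranes in freezing, was at 10.61 and 11.41 against 8.80 and 8.80 (difference -2.21, SE 0.37, adjusted p = 0.00384). Its relative *COR15A* was lower as well (-1.52). *COR15A* was also lower at the other times of day, by -0.56 on average, and its departure from that mean was not called. *RD29A* and *ERD10*, of the same response, were the remaining members. In each of the 4 genes with values the Col_100 array was the highest of the 4, and without it none of the list was called. Without *rve8-1*_76 3 were called, and without *rve8-1*_100 2.

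Few flowering and growth genes were called. *BBX32*, a B-box protein of light signaling, was at 4.65 ± 0.21 (SD, n = 2) in Col and at 6.42 ± 0.08 (SD, n = 2) in *rve8-1*, with no overlap of arrays (difference 1.77, SE 0.18, adjusted p = 0.000124). *COL1* and *COL2*, relatives of *CONSTANS*, were each higher by 1.23, and these were the 3 called of 13 flowering genes (all genes, 2.32% higher). *IAA29*, an auxin-response repressor, was the only one called of 15 growth and hormone genes (all genes, 1.36% lower). Its difference was -1.65 (SE 0.28, adjusted p = 0.00379). Its levels were 5.65 and 6.03 in Col and 4.27 and 4.11 in *rve8-1*. Calls for *COL1*, *COL2* and *IAA29* were lost without Col_100 or without *rve8-1*_100, and that for *COL2* without *rve8-1*_76.

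Of 13 chlorophyll synthesis genes, 2 were called, both lower (all genes, 1.36%), and both encode light-dependent protochlorophyllide reductases. *PORB* was at 11.41 and 11.45 in Col and at 10.20 and 10.60 in *rve8-1* (difference -1.03, SE 0.16, adjusted p = 0.00292). *PORA* was at 6.84 and 7.59 against 5.08 and 5.62 (difference -1.87, SE 0.40, adjusted p = 0.0165), a call lost without Col_100 or either mutant array. Both were lower while the median of the list was 0.10, or -0.00 with arrays centred on their medians.

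Most light-harvesting genes differed little. Of 12 tested, 11 had differences between -0.09 and 0.09 and the list median was -0.01, a sign that turned under quantile normalization (0.02). A further 4 had no row. The 11 had Col means from 11.75 to 13.10, while the maxima of the 4 arrays were 13.50 to 13.76. Their fitted peaks in Col lay between CT0.6 and CT3.8. The part of high signal or of peak time in the small differences was not tested. The exception, and the 1 called (all genes, 2.32% higher), was *LHCB4.3*, a minor antenna protein of photosystem II. It was at 6.85 and 6.67 in Col and at 7.94 and 8.26 in *rve8-1* (difference 1.34, SE 0.20, adjusted p = 0.00207). Among 10 photoreceptors, *PHOT2*, a blue light receptor of chloroplast movement, was the 1 called (0.77, adjusted p = 0.0320), against 2.32% of all genes called higher. The median of the photoreceptors, 0.02, became -0.08 with median centring. Catalases split, with *CAT2* higher (0.94, adjusted p = 0.0433) and *CAT3* lower (-0.89, adjusted p = 0.0304). The *PHOT2* call was lost without Col_100 or either mutant array. The *CAT2* call was lost without either Col array or *rve8-1*_100, and the *CAT3* call without either Col array or *rve8-1*_76. Quantile normalization ended both calls, and median centring that of *CAT2*.

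**Figure D5:**
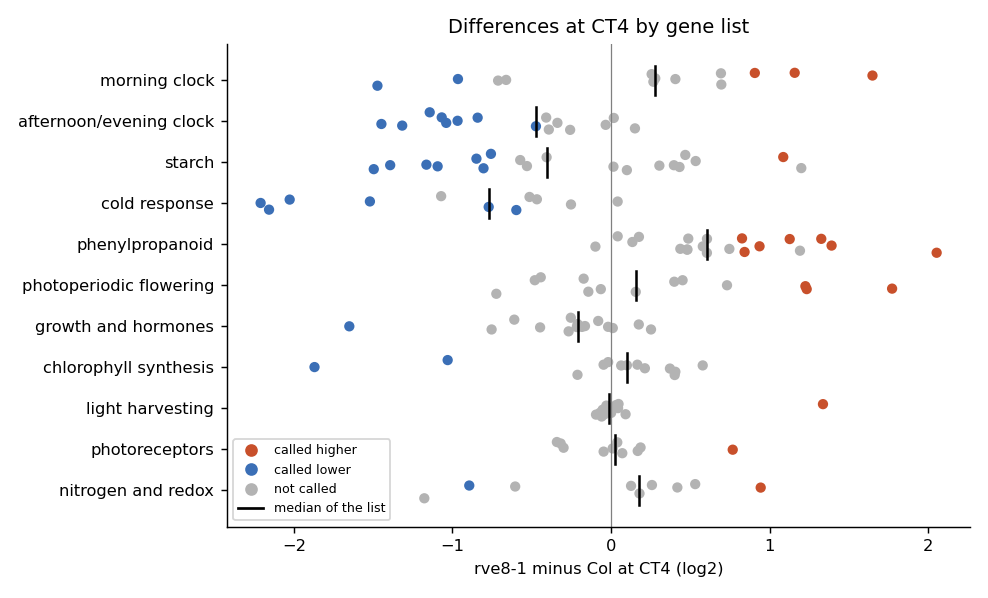
The difference *rve8-1* minus Col at CT4 (x axis, log2) of each tested gene of 11 lists (y axis), 1 point per gene, with orange for called higher, blue for called lower, grey for not called and a black bar at the median of the list. Cold and evening clock genes lie mostly left of 0, starch genes on both sides, phenylpropanoid genes mostly right of it, and light-harvesting genes close to it.

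Genes other than *RVE8* that the study had singled out for a changed level were checked at this time. The study chose them after moving *rve8-1* by 4 h against Col and comparing all times of day. The counts here compare equal times, at CT4 only. Of 12, 2 were higher and 7 lower (all genes, 2.32% and 1.36%), with 4 lower without *rve8-1*_100 or with only the 4 arrays compared in the fit, and since the study chose them on these arrays the count is not independent evidence. At5g11330, at 7.80 and 7.85 in Col and 6.47 and 6.26 in *rve8-1*, was lower by 1.46 (difference -1.46, SE 0.13, adjusted p = 6.42e-05) and at the other times by a similar -1.62. At4g29610, at 5.10 and 5.33 against 3.85 and 3.59, was lower by 1.50 at CT4 (difference -1.50, SE 0.15, adjusted p = 0.000124). Its mean difference at the other times was -0.15, a mean in which differences of opposite sign cancel. Its *rve8-1* level at CT4 differed from Col at CT0 by -0.51. *BGLU18*, *MBP1* and At3g42658 were not called at CT4, with differences of -0.01, -0.35 and -0.64. Set against Col at CT0, their *rve8-1* levels at CT4 differed by -0.21, -0.42 and -0.82, also not called.

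Calls for single genes rested on few arrays, 2 in each group. Leaving 1 out also lowers the power of the fit, and lost calls do not separate this from dependence on that array. Differences with 1 array left out ranged from 0.92 to 0.95 for *MYB111* and from 0.84 to 0.97 for *RVE1*. They ranged more widely for *QQS* (-2.16 to -0.83) and *CAT3* (-1.34 to -0.45). Of 79 genes named by rule, 61 were called, and 28 of these stayed called with each single array left out. Without Col_100, 32 of the 61 were lost, without *rve8-1*_100 27, without *rve8-1*_76 21 and without Col_76 11. Among those that held were *RVE8*, *FKF1*, *PRR3*, *LUX*, *GRP7*, *ASG4*, *BBX32*, *HYH*, *AMY3*, *PHS2*, *DPE1*, *BAM9*, *PORB* and *LHCB4.3*. Of these, *PRR3*, *LUX*, *GRP7* and *PORB* lost their calls when only the 4 arrays compared were fitted.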

How the data were processed

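Whole-seedling RNA was measured on 24 AGRONOMICS1 arrays, of which 4 form this comparison. The authors masked poor probes, applied RMA over TAIR9 gene models and deposited a log2 level per gene and array. Columns of other samples numbered 0, and the 30237 rows cover 29920 loci, 29398 of which matched a locus of the TAIR10.1 annotation, used for names only. A linear model with 1 mean for each of 12 groups of 2 arrays was fitted (limma 3.58.1, R 4.3.3; 12 residual and 3.58 prior degrees of freedom), and two-sided p-values were Benjamini-Hochberg adjusted over 19473 genes and called under 0.05. The fit was tested on simulated data. For loci with several rows the row with the highest mean was used. For arrays, their number limits the precision. Descriptions and figures used Python 3.11.15, numpy 2.4.6, pandas 2.3.3 and matplotlib 3.10.9.

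Named genes are *RVE8* and its neighbors, the 10 largest rises and falls, the 5 smallest p-values, up to 4 called members of each list by p, both clock lists and the genes the study named for level. Further called list members were named after their values were seen, to complete counts. The comparison, lists and rule were chosen with earlier results of these data known. The annotation pairs no locus with the names *RVE3*, *RVE5*, *RVE6*, *CDF5* and *COR28*, so the loci entered for them were left out of the list counts. Counts with them were added after seeing the data. A planned search of promoter motifs was not run. Alternatives covered the filter, scaling, variance prior, arrays fitted, threshold, replicate block and each array left out.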

Additional observations from a re-analysis of the deposited data

Results flagged for a closer look

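The CT4 difference departed from the mean difference at the 5 other times of day in 774 genes (limma, adjusted p under 0.05), 51 of them named genes. Values below are that departure on the log2 scale, the CT4 difference minus the mean elsewhere.

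Among clock genes the departure was 1.86 for *LHY*, 1.31 for *CCA1* and 1.29 for *RVE1*. It was -1.54 for *FKF1*, -1.49 for *PRR3*, -1.44 for *PRR5*, -1.35 for *GI*, -1.31 for *PRR7*, -1.28 for *LUX*, -1.22 for *GRP7*, -0.72 for *CHE* and -0.70 for *GRP8*.

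Of the largest falls it was -4.69 for At1g07050, -3.06 for At5g23240, -3.03 for At1g56300, -2.86 for At2g33830, -2.80 for At5g62360, -2.36 for *MEE14*, -2.08 for At5g49015 and -1.64 for *NUDT8*. Of the genes with the smallest p it was -1.44 for At2g30600 and -1.35 for At4g29610. Of the largest rises it was 2.86 for *CSLA01*, 2.66 for *UF3GT*, 2.60 for *DFR*, 2.43 for *ASG4*, 2.37 for *NUDT24*, 2.35 for At2g27420, 2.18 for At4g27360, 2.18 for At5g18407, 2.14 for At5g42760 and 1.21 for At3g09590.

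In the pathway lists it was -2.56 for *COR27*, -2.21 for *CBF3*, -2.08 for *COR15B*, -2.20 for *IAA29*, -2.03 for *PORA*, -1.10 for *PORB*, -1.32 for *PHS2*, -1.20 for *AMY3* and -1.04 for *DPE1*. It was 2.16 for *BBX32*, 1.66 for *HYH*, 1.39 for *LHCB4.3*, 1.39 for *COL2*, 1.27 for *COL1*, 1.19 for *BAM9*, 1.05 for *MYB111*, 0.96 for *PHOT2*, 0.94 for *FLS1* and 0.53 for *CA1*.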

How the results depend on the processing

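No called named gene changed direction under the alternatives run. Among those not called, the sign turned with 1 array left out for *ELF3* (-0.35 to 0.28), *BOA* (-0.63 to 0.11), *ZTL* (-0.09 to 0.13), *BGLU18* (-0.11 to 0.08) and *LNK4* (-0.01 to 0.57). The count of genes higher in *rve8-1* at CT4 (451) was 238 without the expression filter, 226 with median centring, 43 when only the 4 arrays compared were fitted, 106 at an adjusted p under 0.01 and 88 with a log2 difference of at least 1. The count of lower genes (265) was 79, 97 and 118 under the last 3 of these. The count of departing genes (774) was 210 at the stricter p and 277 with the minimum difference. The 5 genes called against Col at CT0 were 2 with the filter required in both genotypes and 2 with only the compared arrays. With 1 array left out, its group kept 1 array, assumed to vary like the others, and the counts ranged from 56 to 319 (higher), 60 to 193 (lower), 167 to 538 (departing) and 4 to 5 (against Col at CT0). The lowest higher count came without *rve8-1*_100 (Col_100, 67) and the lowest lower count without Col_100 (*rve8-1*_100, 80). The share of higher genes falling in Col was 81.2% from day 4 arrays and 74.3% from day 5 arrays. Whether days pair the arrays was not settled. Day differences of Col and *rve8-1* at CT4 correlated at -0.205 over genes, and 25 of 66 pairs of groups exceeded 0.1. Over the 66 pairs the median was 0.06, the lowest -0.34 and the highest 0.54. With day as a replicate block the counts were 465, 270, 786 and 5. Signal over background could not be judged from summarized values. With the locus of an unpaired name counted in, chosen after seeing the data, 7 of 12 cold genes were lower (median -0.92) and 3 of 14 flowering genes higher (median 0.05).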
